A study of Mus musculus with 6 samples.

Results

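The genes described here are 9 Toll-like receptors (Tlr1, Tlr2, Tlr3, Tlr4, Tlr6, Tlr7, Tlr8, Tlr9 and Tlr13) and Cd14, taken by symbol from a table of 56748 genes counted in mouse aorta. All 10 were found under 1 row each, and all 10 passed the filter on low counts, as did 16377 genes in all. Bulk RNA sequencing of poly-A RNA was done on whole aortas of 6-month-old Apoe-deficient mice (Apoe -/-), which lack apolipoprotein E and are prone to atherosclerosis. Every mouse had received angiotensin II, a pressor peptide, from an osmotic minipump for 28 days, so no group without angiotensin II or with intact Apoe is compared here. One group was wild-type littermates (WT, 3 libraries) and the other littermates lacking soluble ST2 (sST2-KO, 3 libraries), the secreted form of the interleukin-33 receptor. The way soluble ST2 was removed and the sex of the mice were not given in the sources used here, so the knockout is described by its label alone.

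Toll-like receptors are membrane proteins that bind molecules of microbes or of damaged cells and start inflammatory signalling. Tlr1, Tlr2, Tlr4 and Tlr6 sit at the cell surface, where they bind lipoproteins and lipopolysaccharide, whereas Tlr3, Tlr7, Tlr8, Tlr9 and Tlr13 sit in endosomes and bind nucleic acids. CD14 is a surface protein that hands lipopolysaccharide to TLR4 and its partner MD-2. Nearly all of them signal through the adaptor MyD88 to NF-kB, TLR3 signals through TRIF, and in the arterial wall macrophages are a main source, with some receptors also made by endothelial cells, fibroblasts and smooth muscle.

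Totals were 15615658 to 17988552 counts per library, of which the 10 genes took 1736 to 4465. The smooth muscle marker Myh11 was present in every library, at 797 to 2529 CPM. Several libraries stood apart. In sST2-KO replicate 2 there were airway epithelium transcripts (5 markers summing to 30455 CPM, against at most 29.9 CPM elsewhere), and in WT replicate 3 there were liver transcripts (4 markers summing to 7159 CPM, against at most 5.10 CPM elsewhere). The share of mitochondrially encoded genes was highest in WT replicate 2 (37.8%) and lowest in sST2-KO replicate 2 (7.08%), the other libraries lying at 18.4 to 23.7%. Il1rl1, which encodes both forms of ST2, was at 2.81, 9.49 and 4.35 CPM in the WT aortas and at 2.39, 2.82 and 4.86 CPM in the sST2-KO aortas, in replicate order. Those groups overlapped (edgeR quasi-likelihood test, adjusted p = 0.594), and a count by gene sums both transcript forms, so this row checks the genotype only weakly. CPM are TMM-scaled counts relative to library size, given in replicate order or as mean ± SD over n = 3. Nothing in the labels says more of the replicates than their numbers, so the tests measure the spread between these libraries.

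Transcripts of the 10 genes were lower on average in sST2-KO than in WT, and for 7 receptors every sST2-KO library lay below every WT library. All 10 log2 changes were negative, with a median of -1.10, where 46.5% of all tested genes were negative and their median was 0.042. The 7 receptors without overlap were Tlr1, Tlr2, Tlr3, Tlr7, Tlr8, Tlr9 and Tlr13, and 10% of all tested genes were lower without overlap. No gene passed the edgeR quasi-likelihood test at an adjusted p of 0.05, neither among the 10 (0 called) nor among all 16377 (0% in each direction). At an unadjusted p under 0.05 there were 7 of the 10, the same 7 receptors, against 5.95% of all genes lower and 5.08% higher. DESeq2 called 5 of the 10 lower (Tlr1, Tlr2, Tlr7, Tlr8 and Tlr13) against 1.44% of all genes lower and 0.366% higher. Quality-weighted limma-voom called Tlr2 alone, against 0.214% of all genes lower and 0.0488% higher, and limma-voom without weights called 0 genes. In bulk tissue, fewer cells that carry a receptor cannot be told apart from less receptor RNA per cell.

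**Figure D1:**
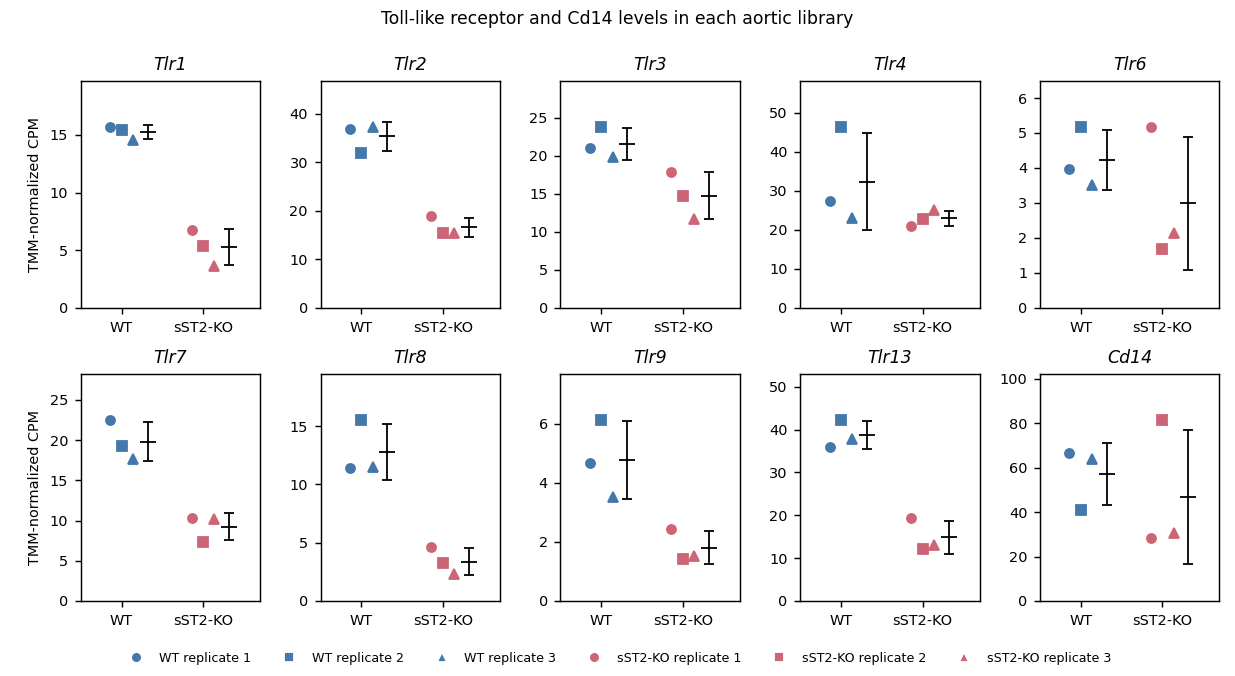
TMM-normalized CPM (vertical axes, each starting at 0) of the 9 receptors and Cd14 in 3 WT (blue) and 3 sST2-KO (red) aortas. Marker shape gives the replicate and the black bar the mean ± SD. Tlr1, Tlr2, Tlr3, Tlr7, Tlr8, Tlr9 and Tlr13 separate the groups, while the sST2-KO replicate 2 square for Cd14 (81.6 CPM) lies above every WT library.

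The lipoprotein receptors Tlr2 and Tlr1 were apart between the groups by a wide margin. Tlr2, which pairs with Tlr1 or Tlr6 to bind bacterial lipoproteins, is ENSMUSG00000027995 on chromosome 3 (83743579 to 83749074, minus strand, mm39). It had 36.8, 31.9 and 37.3 CPM in the WT aortas and 18.9, 15.5 and 15.4 CPM in the sST2-KO aortas. No library of one group came near the other, and the WT mean was 2.13 times the sST2-KO mean (35.3 ± 2.99 against 16.6 ± 2.02 CPM, SD, n = 3). The log2 change was -1.09 (SE 0.17), with an adjusted p of 0.294 in edgeR, 0.000230 in DESeq2 and 0.0427 in quality-weighted limma-voom, and over all 17 alternatives the adjusted p was 0.000230 to 0.690. Tlr1, the partner of Tlr2 for triacylated lipoproteins, is ENSMUSG00000044827 on chromosome 5 (65082022 to 65090906, minus strand, mm39). It had 15.7, 15.4 and 14.6 CPM in the WT aortas and 6.76, 5.34 and 3.66 CPM in the sST2-KO aortas. The WT libraries differed little among themselves (SD 0.601 CPM), and the difference between groups was larger, at a log2 change of -1.53 (SE 0.29). Its adjusted p was 0.335 in edgeR and 0.000498 in DESeq2, and 0.000498 to 0.690 over the alternatives.

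Tlr6, the other partner of Tlr2 (ENSMUSG00000051498, chromosome 5, 65109374 to 65117440, minus strand, mm39), lies 18467 bases from Tlr1, and its groups overlapped. It had 3.97, 5.18 and 3.52 CPM in the WT aortas and 5.17, 1.68 and 2.13 CPM in the sST2-KO aortas, from 32 to 91 counts. sST2-KO replicate 1 was level with the highest WT library while the other sST2-KO libraries were the lowest of all 6. The log2 change was -0.49 (SE 0.50, edgeR adjusted p = 0.694), and without sST2-KO replicate 1 it was -1.15 (edgeR adjusted p = 0.413, within a range of 0.413 to 0.943 over the alternatives). It was also -0.20 without sST2-KO replicate 2, -0.30 without sST2-KO replicate 3 and -0.34 without WT replicate 2. The ratio of Tlr1 to Tlr6 CPM was 3.96, 2.97 and 4.14 in the WT aortas and 1.31, 3.18 and 1.72 in the sST2-KO aortas. These ratios overlapped (exact permutation test, two-sided, p = 0.2, adjusted p = 0.25 over 5 ratios compared).

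The coding sequences of Tlr1 and Tlr6 share long identical runs. In the longest reading frames of GENCODE vM21 transcripts (2388 bases for Tlr1 and 2421 for Tlr6), the longest identical run was 229 bases, at positions 1468 to 1696 of Tlr1 counted from its start codon. It is shown because a read inside it matches both genes.
Tlr1 and Tlr6 shared run: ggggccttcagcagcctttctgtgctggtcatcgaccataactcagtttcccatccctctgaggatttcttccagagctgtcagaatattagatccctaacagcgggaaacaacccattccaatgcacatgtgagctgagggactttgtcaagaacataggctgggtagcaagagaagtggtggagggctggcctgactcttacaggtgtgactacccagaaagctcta
Of all windows of 100 bases in the Tlr1 frame, 11.3% were found unchanged in Tlr6, and of windows of 150 bases, 6.21%. No other pair of the 9 receptors shared a run longer than 16 bases. The counting of reads that match both genes was not given in the sources used here, so the Tlr1 and Tlr6 values are uncertain to that extent.

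The lipopolysaccharide receptor Tlr4 and its helper Cd14 did not separate the groups. Tlr4 is ENSMUSG00000039005 on chromosome 4 (66745821 to 66848521, plus strand, mm39). It had 27.4, 46.5 and 23.1 CPM in the WT aortas and 21.1, 22.7 and 25.1 CPM in the sST2-KO aortas. WT replicate 2 stood alone at the top and the other 5 libraries lay within 21.1 to 27.4 CPM. The log2 change of -0.49 (SE 0.28, edgeR adjusted p = 0.521) was -0.16 without WT replicate 2 (edgeR adjusted p = 0.791, where the alternatives span 0.504 to 0.791). That library also had the highest mitochondrial share (37.8%) and the highest summed level of the 5 fibroblast markers, at 7032 CPM against 2394 to 5511 CPM in the others, none of them at 0. It was the highest for Pdgfra (166 CPM) and Dcn (4474 CPM) but not for Dpt, Lum or Pi16. Its 5 smooth muscle markers summed to 9016 CPM, second to sST2-KO replicate 3 at 10206 CPM, against 2893 to 5457 CPM in the other libraries. The part of any of these in the Tlr4 value was not tested. A long non-coding RNA, ENSMUSG00000121059, lies inside the Tlr4 span on the same strand with 227 to 397 counts per library. With its counts added to Tlr4, an alternative chosen after seeing the data, the log2 change was -0.37 (SE 0.26, edgeR adjusted p = 0.571).

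Cd14 (ENSMUSG00000051439, chromosome 18) had the highest level per gene length of the 10. It had 66.7, 40.9 and 63.9 CPM in the WT aortas and 28.4, 81.6 and 30.5 CPM in the sST2-KO aortas. The groups overlapped because sST2-KO replicate 2, the library with airway transcripts, was the highest of all 6, while the other sST2-KO libraries were the lowest. The log2 change was -0.29 (SE 0.44, edgeR adjusted p = 0.795). Without sST2-KO replicate 2 it was -0.96 (edgeR adjusted p = 0.309), without sST2-KO replicate 1 -0.029 and without sST2-KO replicate 3 -0.06. Without WT replicate 2 it was -0.50, without WT replicate 1 -0.16, and over all alternatives the adjusted p was 0.129 to 0.986. Also highest in sST2-KO replicate 2 was Lbp, the serum protein that loads lipopolysaccharide onto CD14, at 175 CPM against 44.3 to 114 CPM elsewhere. The part of the airway transcripts in either value was not tested. Ly96, which encodes MD-2, had 5.25 ± 1.20 CPM in the WT aortas and 3.91 ± 0.4 CPM in the sST2-KO aortas (SD, n = 3), with overlap and a difference of -0.43 on the log2 scale (SE 0.32, edgeR adjusted p = 0.595).

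Among the endosomal receptors all 5 separated the groups, where 10% of all tested genes were lower without overlap. Their median log2 change was -1.38 (-1.91 to -0.54), beside -0.79 (-1.53 to -0.49) for the 4 surface receptors. The ranges of these 2 sets overlapped, and a difference between the sets was not tested. Tlr7 and Tlr8, both sensors of single-stranded RNA, are neighbours on the X chromosome, 40599 bases apart. Tlr8 (ENSMUSG00000040522, chromosome X, 166025692 to 166047325, minus strand, mm39) had 11.4, 15.5 and 11.4 CPM in the WT aortas and 4.6, 3.22 and 2.33 CPM in the sST2-KO aortas. Its WT mean was 3.78 times its sST2-KO mean, the largest ratio of the 10 genes (12.8 ± 2.39 against 3.38 ± 1.15 CPM, SD, n = 3). The log2 change was -1.91 (SE 0.35), with an adjusted p of 0.335 in edgeR, 0.000121 in DESeq2 and 0.000121 to 0.690 over the alternatives. Tlr7 (ENSMUSG00000044583, chromosome X, 166087925 to 166113554, minus strand, mm39) had 22.6, 19.2 and 17.7 CPM in the WT aortas and 10.3, 7.27 and 10.2 CPM in the sST2-KO aortas. Its groups were also well apart, with a log2 change of -1.10 (SE 0.24) and an adjusted p of 0.339 in edgeR, 0.00762 in DESeq2 and 0.00762 to 0.690 over the alternatives. The ratio of Tlr7 to Tlr8 CPM was 1.99, 1.24 and 1.55 in the WT aortas and 2.23, 2.26 and 4.37 in the sST2-KO aortas. It was higher in every sST2-KO library, by 0.85 on the log2 scale (exact permutation test, two-sided, p = 0.1, the smallest that 3 against 3 can give; adjusted p = 0.25).

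Tlr13, a receptor of bacterial ribosomal RNA present in mice, is also X-linked (ENSMUSG00000033777, chromosome X, 105186810 to 105204099, plus strand, mm39). It had 36.1, 42.3 and 37.9 CPM in the WT aortas and 19.3, 12.1 and 13.1 CPM in the sST2-KO aortas. The lowest WT library was well above the highest sST2-KO library, and the log2 change was -1.38 (SE 0.22). Its adjusted p was 0.298 in edgeR and 0.000167 in DESeq2, and 0.000167 to 0.690 over the alternatives. Tlr9, the receptor of unmethylated CpG DNA (ENSMUSG00000045322, chromosome 9, 106099797 to 106104082, plus strand, mm39), was low in all libraries, with 23 to 85 counts. It had 4.69, 6.14 and 3.52 CPM in the WT aortas and 2.44, 1.43 and 1.53 CPM in the sST2-KO aortas, without overlap. Its log2 change was -1.40 (SE 0.40), with an adjusted p of 0.416 in edgeR, 0.0842 in DESeq2 and 0.0842 to 0.690 over the alternatives. Tlr3, the sensor of double-stranded RNA (ENSMUSG00000031639, chromosome 8, 45848702 to 45864117, minus strand, mm39), differed least of the endosomal group. It had 21.0, 23.8 and 19.8 CPM in the WT aortas and 17.9, 14.7 and 11.6 CPM in the sST2-KO aortas. The lowest WT and the highest sST2-KO library were close, at 19.8 and 17.9 CPM, and the log2 change was -0.54 (SE 0.22, edgeR adjusted p = 0.451, 0.291 to 0.690 over the alternatives).

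**Figure D2:**
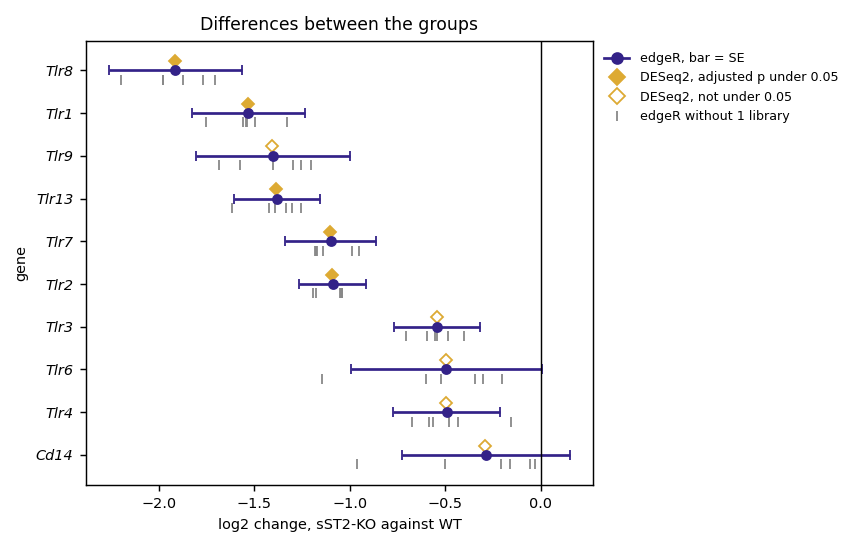
Log2 change of sST2-KO against WT (horizontal axis) for each gene: edgeR estimates with SE bars, DESeq2 estimates as diamonds (filled where the adjusted p is under 0.05) and edgeR estimates without each library in turn as grey ticks. Tlr8 is at -1.91 and Cd14 at -0.29, and the ticks for Cd14 reach -0.96.

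Pearson correlations of log2 CPM across the 6 libraries between the 7 receptors without overlap had a median of 0.945 and ran from 0.778 (Tlr3 with Tlr7) to 0.987 (Tlr1 with Tlr8). These 7 were taken for the separation of the groups, which by itself gives high correlations over the same libraries, so the values are a description only. Tlr4 reached at most 0.714 with any other member, Tlr6 0.798 and Cd14 0.368. The genes most like the members' mean standardised profile, taken over named protein-coding genes outside the lists, were Cyp26a1 (r = 0.997), Emp1 (0.996), Leprot (0.996), Fcgr2b (0.996) and Dmxl2 (0.995), each over 6 libraries. That profile itself separated the groups, and these genes were picked for likeness to it. Their correlations and group differences are therefore a description only. Fcgr2b, the inhibitory Fc receptor of macrophages and B cells, had 135, 140 and 120 CPM in the WT aortas and 65.7, 51.2 and 41.4 CPM in the sST2-KO aortas (log2 change -1.32, SE 0.21, edgeR adjusted p = 0.294). Cyp26a1, which degrades retinoic acid, had 1.37 to 2.31 CPM in the WT aortas and at most 0.511 CPM in the sST2-KO aortas, so its profile rests on few counts.

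Promoter sequences (250 bases before to 50 after a RefSeq gene start, build GRCm38.p6) were matched by symbol for 7 of the 10 genes, in 9 windows. They are shown for the receptors called by DESeq2 that have a window with a match. Letters in capitals mark matches, on either strand, to the PU.1 core GAGGAA, a myeloid factor's motif, or to the NF-kB motif, GGGA and CC with any 4 bases between; no match to one overlaps a match to the other.
Tlr2, chr3:83841559-83841858, minus strand: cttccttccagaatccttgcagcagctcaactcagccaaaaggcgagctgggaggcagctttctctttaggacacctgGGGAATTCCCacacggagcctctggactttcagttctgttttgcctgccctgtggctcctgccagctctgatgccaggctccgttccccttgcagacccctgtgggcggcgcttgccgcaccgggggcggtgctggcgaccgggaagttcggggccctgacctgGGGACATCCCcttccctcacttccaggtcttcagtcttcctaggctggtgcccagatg
Tlr1, chr5:64933509-64933808, minus strand: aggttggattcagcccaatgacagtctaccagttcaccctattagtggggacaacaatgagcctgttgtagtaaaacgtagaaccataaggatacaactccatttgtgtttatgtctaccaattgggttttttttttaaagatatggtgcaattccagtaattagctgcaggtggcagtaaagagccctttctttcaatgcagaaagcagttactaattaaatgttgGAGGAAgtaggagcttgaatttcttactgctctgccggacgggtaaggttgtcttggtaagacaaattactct
Tlr8, chrX:167264280-167264579, minus strand: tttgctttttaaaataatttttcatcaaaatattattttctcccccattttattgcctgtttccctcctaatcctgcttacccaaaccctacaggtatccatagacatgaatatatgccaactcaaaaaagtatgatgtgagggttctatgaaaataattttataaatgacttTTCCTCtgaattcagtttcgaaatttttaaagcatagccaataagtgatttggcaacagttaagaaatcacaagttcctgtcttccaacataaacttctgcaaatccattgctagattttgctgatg
Tlr13, chrX:106143025-106143324, plus strand: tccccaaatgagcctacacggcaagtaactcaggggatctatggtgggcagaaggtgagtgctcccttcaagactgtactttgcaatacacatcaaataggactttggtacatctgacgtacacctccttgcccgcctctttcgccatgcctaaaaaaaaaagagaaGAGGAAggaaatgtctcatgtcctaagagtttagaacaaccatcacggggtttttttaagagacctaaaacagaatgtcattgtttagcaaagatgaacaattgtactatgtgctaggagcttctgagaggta
The matches began 23 bases before the start in Tlr1, 83 in Tlr13 and 77 in Tlr8, and 172 and 8 bases before it in Tlr2. PU.1 core letters were in 4 of the 9 windows, where 28.3% of all 32851 promoter windows of that length hold them. NF-kB letters were in 2 of the 9, those of Tlr2 and Tlr3, against 20.7% of all windows. The interferon-response motif, GAAA repeated after any 2 bases, was in the Tlr6 window starting at 64959117 alone (3.44% of all windows) and the AP-1 motif TGANTCA in the Tlr9 window alone (7.81%). The second Tlr1 and the second Tlr6 window held none of the 4 motifs.

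Divided by gene length, the levels can be ordered between genes. In WT, Cd14 came first at 33.0 ± 8.17 CPM per kb, followed by Tlr2 at 11.7 ± 0.993 and Tlr13 at 9.0 ± 0.750 CPM per kb (SD, n = 3), and each of these 3 lay above the next in order without overlap, Tlr13 above Tlr4 only just (8.38 against 8.37 CPM per kb). Tlr4 (5.82), Tlr7 (4.86), Tlr1 (4.55), Tlr3 (4.14) and Tlr8 (3.57 CPM per kb) came next, and each overlapped its neighbour in this order. Tlr9 (1.37) and Tlr6 (1.13 CPM per kb) were lowest and overlapped each other. In sST2-KO, Tlr4 (4.13) ranked before Tlr13 (3.45 CPM per kb), Tlr3 (2.83) before Tlr7 (2.26 CPM per kb), and Tlr9 (0.518 CPM per kb) came last. From Tlr4 down, neighbours in that order overlapped. The 9 receptors summed to 46.2 ± 3.65 CPM per kb in WT and 22 ± 3.37 CPM per kb in sST2-KO (SD, n = 3).

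Within that sum, 4 receptors had shares that did not overlap between the groups. Tlr3 took 8.90, 9.13 and 8.85% in the WT aortas and 13.3, 14.1 and 11.1% in the sST2-KO aortas. Tlr8 took 6.98, 8.64 and 7.43% in the WT aortas and 4.95, 4.48 and 3.22% in the sST2-KO aortas. For Tlr13 the shares were 18.5, 19.6 and 20.5% against 17.3, 14.1 and 15.1%, and for Tlr1 they were 10.4, 9.17 and 10.1% against 7.80, 7.98 and 5.43%. In these 4 the groups did not overlap, Tlr3 being higher and the others lower in sST2-KO (exact permutation test, two-sided, p = 0.1 each, the smallest possible; adjusted p = 0.225 over 9 shares). Tlr2 held 25.6 ± 4.02% in the WT aortas and 25.1 ± 0.753% in the sST2-KO aortas, and Tlr7 10.6 ± 1.45% and 10.3 ± 1.82% (SD, n = 3). The Tlr4 share was 12.4 ± 3.74% and 19.2 ± 4.04%, with overlap through WT replicate 2 at 16.7% and sST2-KO replicate 1 at 14.6%.

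**Figure D3:**
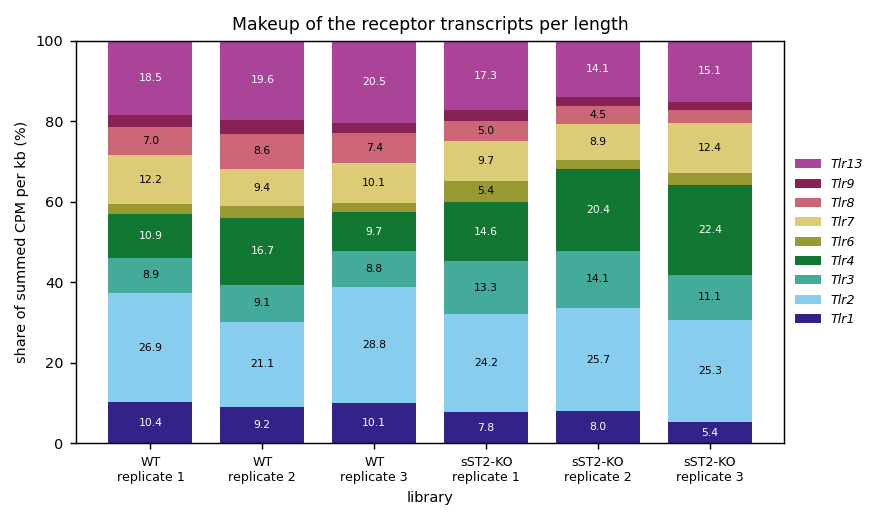
Share of each receptor (stacked bars, percent) in the summed CPM per kb of the 9 receptors, in each of the 6 libraries. Tlr3 takes 8.85 to 9.13% in the WT aortas and 11.1 to 14.1% in the sST2-KO aortas, while Tlr8 takes 6.98 to 8.64% and 3.22 to 4.95%.

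Markers of macrophages, a main source of these receptors in the arterial wall, also had mostly lower levels in sST2-KO. Of 11 macrophage markers 10 had negative log2 changes and 6 separated the groups, with a median of -0.66. Of all tested genes, 46.5% were negative and 10% were lower without overlap. No macrophage marker was at 0 in any library. The F4/80 gene Adgre1 had 94.5, 89.3 and 90.9 CPM in the WT aortas and 42.7, 27.3 and 26.6 CPM in the sST2-KO aortas, while Lyz2, the lysozyme gene, had 2043, 1844 and 1887 CPM and 2051, 3152 and 1373 CPM. The summed marker level was 3167 to 3833 CPM in the WT aortas and 2333 to 3956 CPM in the sST2-KO aortas, set mostly by Lyz2. Averaged as log2 CPM, so that each marker counts alike, the 11 markers were 0.78 lower in sST2-KO, without overlap (exact permutation test, two-sided, p = 0.1, the smallest possible).

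Set against that average in the same library, the members differed from each other. Tlr8 lay at -3.88, -3.09 and -3.81 log2 units from it in the WT libraries and at -4.49, -4.45 and -4.90 in the sST2-KO libraries, a difference of -1.02. Tlr1 (-0.70), Tlr13 (-0.60) and Tlr2 (-0.29) were also lower relative to the markers without overlap. For these 4 the exact permutation p was 0.1, and 0.25 adjusted over the 10 genes. Tlr9 (-0.41) and Tlr7 (-0.29) overlapped, as did Tlr3 (0.24), Tlr4 (0.36), Tlr6 (0.23) and Cd14 (0.36), which had positive differences. Cd14 had -0.22 without sST2-KO replicate 2, and Tlr6 -0.024 without sST2-KO replicate 1. These signs depend on the markers: beside Adgre1 alone, 1 of the 10 genes was lower (Tlr8, -0.27) in place of 6, and Tlr2 (0.46) and Tlr7 (0.46) were higher in sST2-KO. Without Lyz2 and the 3 C1q genes, the other 7 markers left 6 genes lower, with Tlr8 at -0.78, Tlr1 at -0.47 and Tlr2 at -0.051.

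**Figure D4:**
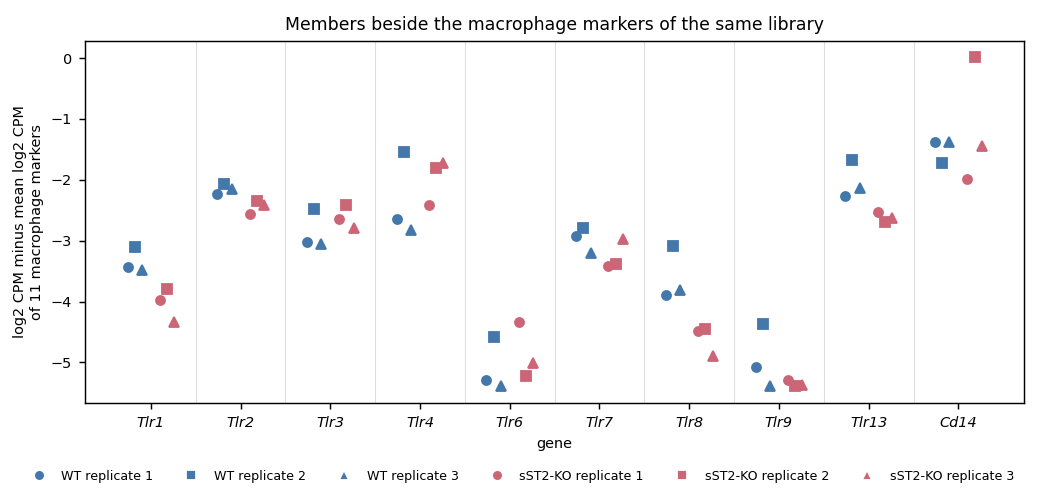
Log2 CPM of each member minus the mean log2 CPM of 11 macrophage markers in the same library (vertical axis), for 3 WT (blue) and 3 sST2-KO (red) libraries. Points of Tlr1, Tlr2, Tlr8 and Tlr13 are lower in sST2-KO without overlap, and Cd14 in sST2-KO replicate 2 is at 0.014.

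Other cell types that carry these receptors varied as well. Of 6 tested neutrophil markers 5 had negative log2 changes (median -1.17) and 1 separated the groups. The summed neutrophil level was 38.4 to 152 CPM in the WT aortas and 17.7 to 82.0 CPM in the sST2-KO aortas. Ly6g, not among those tested, was at 0 in all sST2-KO libraries and at most at 0.319 CPM in WT. Of 5 B cell markers 4 were negative and 2 separated the groups (median -0.99, summed level 13.6 to 23.0 and 7.62 to 18.8 CPM, none at 0). For plasmacytoid dendritic cells, which carry Tlr7 and Tlr9, 2 of 4 tested markers were negative (summed level 28.7 to 150 and 51.2 to 89.3 CPM). That sum was set mostly by Bst2, at 26.6 to 135 CPM in the WT aortas and 48.9 to 79.1 CPM in the sST2-KO aortas. The defining marker of these cells, Siglech, had at most 0.891 CPM in any library, and Klk1 was at 0 outside sST2-KO replicate 2. The 5 fibroblast markers were all negative and 4 of them separated the groups (median -0.66, summed level 5072 to 7032 and 2394 to 3419 CPM, none at 0). Beside these counts, 46.5% of all tested genes were negative and 10% were lower without overlap. The 5 endothelial and the 5 smooth muscle markers all had positive log2 changes (medians 0.27 and 0.27), with overlap of the groups. Of classical dendritic cell, T cell and adipocyte markers 4 of 5, 3 of 5 and 1 of 4 were negative. The summed adipocyte level was lowest in sST2-KO replicate 2 (177 CPM) and WT replicate 2 (233 CPM), against 809 to 1537 CPM in the other libraries. The part of macrophages and of each of these cell types in the receptor values was not tested.

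Beyond the receptors, genes of the signalling chain had log2 changes in both directions. Of 58 other genes of the pathway 56 were tested, 38 with negative and 18 with positive log2 changes, and their median was -0.17. Of all tested genes, 46.5% had negative log2 changes. None of the 56 passed in edgeR (0 called). In that test 13 had an unadjusted p under 0.05 in either direction, where 5.95% of all genes were lower and 5.08% higher. DESeq2 called 3 lower, Ly86, Cd180 and Il6, against 1.44% of all genes lower and 0.366% higher. Groups did not overlap for 12 lower and 5 higher pathway genes, beside 10% lower and 9.09% higher among all tested genes. The other Toll-like receptors were rare, with Tlr5, the flagellin receptor, at 0.466 to 6.06 CPM, Tlr11 at 0 to 1.2 CPM and Tlr12 at 0.067 to 2.84 CPM, and all 3 overlapped.

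Co-receptors and trafficking factors had 7 of 9 negative log2 changes. RP105, encoded by Cd180, is a Toll-like receptor homologue that works with MD-1, the product of Ly86. Cd180 had 27.0, 33.1 and 23.4 CPM in the WT aortas and 17.6, 9.25 and 7.52 CPM in the sST2-KO aortas (log2 change -1.28, SE 0.35, edgeR adjusted p = 0.402). Ly86 had 40.5, 34.2 and 29.3 CPM in the WT aortas and 18.7, 12 and 13.7 CPM in the sST2-KO aortas (log2 change -1.23, SE 0.23, edgeR adjusted p = 0.335). Both genes of this complex separated the groups. Unc93b1, which carries the endosomal receptors from the endoplasmic reticulum, overlapped, with 112 ± 9.74 and 87.1 ± 20.6 CPM (SD, n = 3) and a difference of -0.37 on the log2 scale (SE 0.21, edgeR adjusted p = 0.522). Nrros, a negative regulator expressed in myeloid cells, differed by -0.73 on the log2 scale (SE 0.35, edgeR adjusted p = 0.476).

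Adaptors and kinases each had a median log2 change of -0.11. The common adaptor Myd88 had 37.1, 32.5 and 35.2 CPM in the WT aortas and 32.8, 36.2 and 29.6 CPM in the sST2-KO aortas, a difference of -0.087 on the log2 scale (SE 0.15, edgeR adjusted p = 0.825). Ticam2, the bridging adaptor of Tlr4 (-1.37, SE 0.46), and Pik3ap1, an adaptor to phosphoinositide 3-kinase (-1.13, SE 0.34), separated the groups with edgeR adjusted p-values of 0.431 and 0.422. Of 15 kinases and ligases 9 had negative log2 changes, and the 2 with the lowest p were positive: Irak2 (0.63, SE 0.18), with 36.5 ± 4.35 CPM in the WT aortas and 56.5 ± 8.33 CPM in the sST2-KO aortas, and Tab1 (0.81, SE 0.26; SD, n = 3; edgeR adjusted p = 0.411 and 0.431). The third, Tab2, was lower without overlap (-0.26, SE 0.17, edgeR adjusted p = 0.552). Among 8 transcription factors, Irf3 (0.42, SE 0.16) and the NF-kB subunit Rela (0.36, SE 0.14) were higher without overlap, at edgeR adjusted p-values of 0.442 and 0.450. Rel, another NF-kB subunit, was lower without overlap (-0.48, SE 0.22, edgeR adjusted p = 0.469). Irf7, itself interferon-induced, had 127, 24.8 and 105 CPM in the WT aortas and 28.4, 31.0 and 27.9 CPM in the sST2-KO aortas, so WT replicate 2 lay below all sST2-KO libraries (log2 change -1.56, SE 0.53, edgeR adjusted p = 0.435).

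Inhibitors of the pathway were mixed, with 5 of 9 negative. Irak3, a kinase-dead brake on Myd88 signalling found in macrophages, had 27.2, 42.6 and 27.5 CPM in the WT aortas and 23.0, 17.5 and 15.8 CPM in the sST2-KO aortas (log2 change -0.79, SE 0.25, edgeR adjusted p = 0.431). The deubiquitinases Tnfaip3 (-0.46, SE 0.22) and Cyld (-0.43, SE 0.18) also separated the groups, at edgeR adjusted p-values of 0.484 and 0.457. Of the genes that Toll-like receptors can induce, 5 of 6 tested were negative, where 46.5% of all tested genes were negative. Il6 had 15.9, 4.23 and 12.5 CPM in the WT aortas and 1.48, 1.73 and 0.466 CPM in the sST2-KO aortas (log2 change -3.13, SE 0.67, edgeR adjusted p = 0.339). Il1b had 16.2, 10.5 and 12 CPM against 8.01, 2.52 and 2.26 CPM (log2 change -1.59, SE 0.54, edgeR adjusted p = 0.433). Cxcl10 overlapped, with WT replicate 2 at 1.83 CPM among sST2-KO libraries at 0.940 to 2.73 CPM (log2 change -1.85, SE 0.70, edgeR adjusted p = 0.443). Tnf (-0.80, SE 0.59), Nos2 (-0.24, SE 0.43) and Ptgs2 (0.18, SE 0.64) overlapped too, at edgeR adjusted p-values of 0.587, 0.831 and 0.918. Ptgs2 was highest in sST2-KO replicate 3, at 86.2 CPM.

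**Figure D5:**
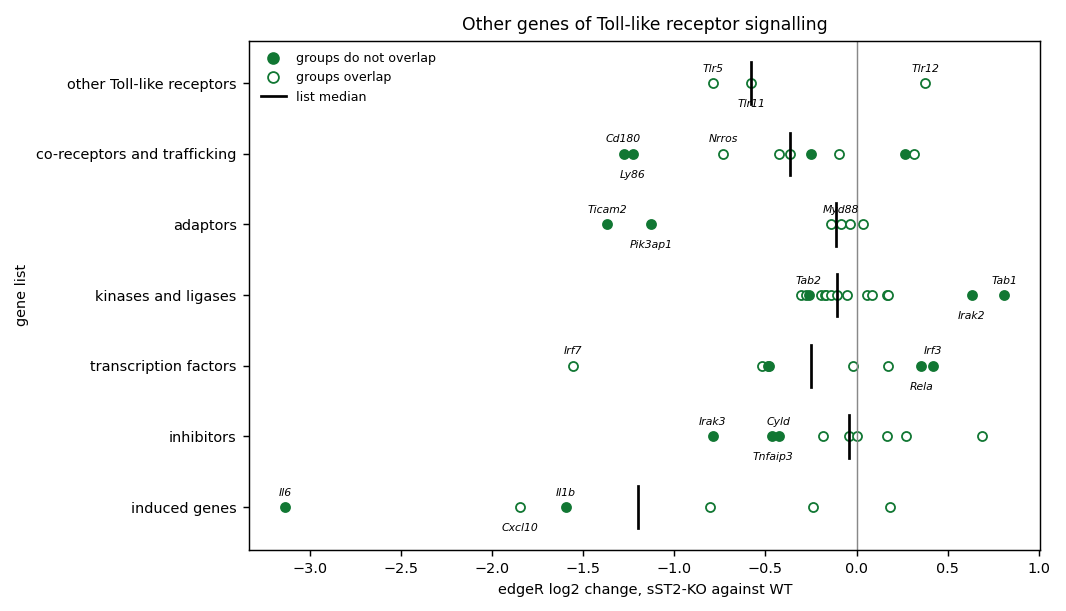
EdgeR log2 changes of sST2-KO against WT (horizontal axis) for 56 other genes of Toll-like receptor signalling in 7 lists. Filled points mark genes whose groups do not overlap and black lines list medians; Il6 is at -3.13 and Tab1 at 0.81.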

How the data were processed

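One table deposited by the authors holds raw counts of 6 libraries by Ensembl gene, with gene lengths and coordinates. Libraries were made from poly-A RNA with random priming, per the labels' protocols, and per the submitters' processing notes the build is mm39. The aligner, counter, strand setting and annotation release were not given in the sources used here. Groups and replicate numbers came from sample titles, and columns from library names.

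Counts were fitted with edgeR 4.0.16 in R 4.3.3 (filterByExpr with a minimum count of 10 and a minimum total of 15, TMM, glmQLFit, glmQLFTest) over all 16377 genes and p-values adjusted by Benjamini-Hochberg, with 0.05 as threshold. The SE is the log2 change divided by the square root of F. A log2 change is sST2-KO minus WT. Outside the fits, 0.5 CPM was added before log2. Alternatives were other scalings, filters and tools (DESeq2 1.42.0, limma 3.58.1), a replicate block and left-out libraries. Shares, ratios and marker-relative levels had exact permutation tests over libraries in scipy 1.17.1. A count of 0 allows up to 0.148 to 0.239 CPM (3 counts; this covers counting error only). Replicates of a group all differed by more than sampling noise.

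The members and lists were chosen with earlier results of these data known. Named are all 10 members, Il1rl1, the genes of each pathway list with the lowest p (up to 3) or named for their role, and the 5 genes most like the members' profile. The fibroblast markers, Lbp, Rel, Tnf, Nos2, Ptgs2, Cnpy3 and Cd36 were singled out after their values were seen. Sequences came from RefSeq promoters and GENCODE vM21 transcripts, and no coordinate was converted between builds.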

Additional observations from a re-analysis of the deposited data

How the results depend on the processing

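All 10 log2 changes kept their negative sign under all 17 alternatives, in 171 of 171 values with the Tlr4 setting chosen after seeing the data, and 165 of these stayed on the same side of the threshold. The exceptions were DESeq2, which called 5 members lower, 3 pathway genes and, over all genes, 232 lower and 59 higher, and limma-voom with quality weights, which called 1 member lower and, over all genes, 35 lower and 8 higher; the cause was not tested. Plain limma-voom, like edgeR, called 0. Leaving out each library in turn gave 0 to 1 genes called lower, 0 called higher and 0 members called, and the members' median ran from -1.19 to -1.0. With a replicate block the Tlr8 log2 change was -1.95 and the Cd14 log2 change -0.46, and 0 genes were called. Deviations of same-numbered libraries correlated at 0.17, 0.074 and -0.069, not all over 0.1, and not every library correlated best with its own number, so the numbers were not taken to pair the samples.

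Relative to Adgre1 alone in place of 11 macrophage markers, Tlr1 (0.041), Tlr2 (0.46), Tlr7 (0.46), Tlr9 (0.33) and Tlr13 (0.15) turned positive, which left 1 member lower in place of 6; Adgre1 itself had a log2 change of -1.51. Leaving out each library in turn, relative Tlr6 ran from -0.024 (without sST2-KO replicate 1) to 0.49 and relative Cd14 from -0.22 (without sST2-KO replicate 2) to 0.78. Relative Cd14 was -0.16 without that library and WT replicate 3. Depth limits Tlr6 and Tlr9 most, whose lowest library had 32 and 23 counts.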
